A study of Mus musculus with 2 samples.

Results

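Broad open regions are stretches of accessible DNA at least 500 bp wide. They were chosen by measured values, the width and the height of the authors' peaks. Overlapping peaks of 2 libraries were joined, and regions with peaks of both libraries were kept. Of these 53623 shared regions, 52301 lay on the 19 autosomes. Members had to be autosomal, at least 500 bp wide and below a peak height of 10 in at least 1 library. This left 2903 broad regions, and the 49398 other shared autosomal regions served as the background throughout.

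The tissue was frontal cortex of male B6CASTF1/J mice aged 14 days, an F1 hybrid between C57BL/6J and the wild-derived strain CAST/EiJ. DNase-seq was run on 2 libraries of this 1 group, biological replicates 1 and 2, each labelled as tissue of 3 males. Separate tissue samples shared 1 donor number, and how much of the spread between libraries is technical is unknown. There was no treatment and no genotype contrast, and regions are not replicates of a condition, so the values below are descriptions without p-values.

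DNase I cuts DNA where nucleosomes leave it exposed, and dense cuts are found at active promoters and enhancers. A footprint is a short run of protected bases within open DNA, where a protein can sit. Wide stretches of open DNA are known from CpG-rich promoters, which are often free of DNA methylation. In bulk tissue, more cells with an open region and more open DNA per cell cannot be told apart.

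Members differed widely in make-up, and sequence of a few is printed from the reference genome GRCm38 (mm10), plus strand. Capitals mark bases inside footprints of both libraries. Each window was the stretch with the most such bases that held no annotated UTR. The member with the most footprints per base lay at Lcorl, and its window, chr5:45857836-45858035, lay upstream of Lcorl in an exon annotated for the transcript 4930449I04Rik. The widest member outside protein-coding genes lay beside the lincRNA C130073E24Rik, and its window, chr8:50916253-50916552, was exon of a noncoding RNA. The widest member with no footprint lay at Rab3a, which encodes a small GTPase of synaptic vesicles, and its window, chr8:70756831-70757130, was intronic.
Lcorl: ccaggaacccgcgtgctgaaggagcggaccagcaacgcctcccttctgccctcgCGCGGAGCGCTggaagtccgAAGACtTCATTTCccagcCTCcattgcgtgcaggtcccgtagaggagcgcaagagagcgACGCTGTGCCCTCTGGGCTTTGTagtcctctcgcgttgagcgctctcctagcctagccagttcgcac
C130073E24Rik: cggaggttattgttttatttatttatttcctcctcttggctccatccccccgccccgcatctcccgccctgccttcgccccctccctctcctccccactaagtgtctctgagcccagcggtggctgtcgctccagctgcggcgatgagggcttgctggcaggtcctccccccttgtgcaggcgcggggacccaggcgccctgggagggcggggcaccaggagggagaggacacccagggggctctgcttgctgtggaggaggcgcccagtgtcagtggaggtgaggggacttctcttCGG
Rab3a: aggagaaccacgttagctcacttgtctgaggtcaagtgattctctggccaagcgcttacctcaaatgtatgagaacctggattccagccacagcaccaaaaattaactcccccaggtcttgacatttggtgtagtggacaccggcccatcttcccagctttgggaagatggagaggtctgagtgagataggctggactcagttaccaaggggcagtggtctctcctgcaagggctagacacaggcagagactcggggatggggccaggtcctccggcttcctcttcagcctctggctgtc

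The Lcorl window had 49 of 200 bases in footprints of both libraries, the most of these windows, and a GC content of 63.5%. In the C130073E24Rik window, 3 bases lay in footprints of replicate 1 and 69 in those of replicate 2, so the libraries overlapped in 3 bases. The Rab3a window had none in either library and a GC content of 54.7%. Of 14 short motifs searched on both strands (all are spelled out further on), the C130073E24Rik window held 3 matches to GGGCGG and 1 to CAGCTG, none of them in capitals. The Lcorl window held 1 match to ACAAAG, which touched the capitals, and the Rab3a window held none of the 14.

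The heights were the authors' deposited signal values, each library on a scale of its own with no stated unit. Broad regions had a median height of 1.099 in replicate 1 and 1.13 in replicate 2, against 1.07 and 1.02 in the other regions. The middle of the distribution was therefore nearly the same, while the tall end differed. The 90th percentile was 2.39 and 2.40 in broad regions, against 3.97 and 3.91 in the others. Within broad regions the heights ran from 0.179 to 10.8 in replicate 1 and from 0.183 to 10.2 in replicate 2. Width and mean height were almost unrelated across the 2903 broad regions (Spearman's rho -0.08) and positively related across the others (0.34). Both measures came from the same peaks and both chose the members. Between libraries, heights of broad regions had a Spearman's rho of 0.89 over 2903 regions. Replicate 2 over replicate 1 had a median log2 ratio of 0.04, and the central 95% of regions lay between -0.63 and 0.63.

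**Figure D1:**
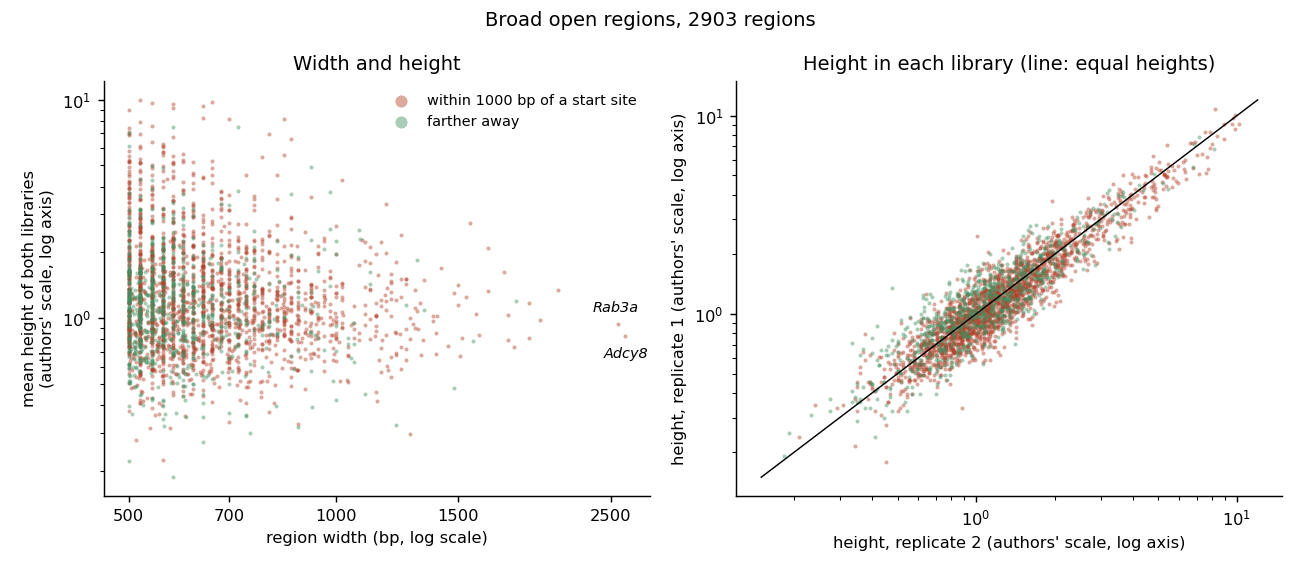
Each point is 1 of the 2903 broad regions, red within 1000 bp of a protein-coding start site and green farther away. The left panel plots mean height (authors' scale, log axis) against width (bp, log axis), and the right panel plots replicate 1 against replicate 2 with a line of equal heights. Widths end at 2620 bp (Adcy8), and most regions lie near a height of 1 in both libraries.

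Widths ran from 500 to 2620 bp with a median of 600 bp, against a median of 240 bp in the other regions. There were 170 members of 1000 bp or more, and all members together covered 1.91 Mb. The width of a member rested on the joining of peaks in many cases. A single peak of 500 bp or more was present in both libraries in 426 members (14.7%), in replicate 1 alone in 474, in replicate 2 alone in 1315 and in neither library in 688. In 710 members, 500 bp or more were covered by peaks of both libraries. Peaks that touched without overlap stayed apart, and another shared region began or ended within 100 bp of 605 members (20.8%). The widths are therefore those of joined peaks and can fall short of a longer open stretch. The libraries did not contribute equally. Peaks of 500 bp or more numbered 996 in replicate 1 (1.31% of its peaks) and 2290 in replicate 2 (2.97%). Applied to 1 library at a time, the width and height limits gave 957 autosomal peaks in replicate 1 and 2210 in replicate 2.

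The authors' track of false discovery rates gave a second view of width. This view is not independent, because the track comes from the same libraries as the peaks that chose the members. The track lists bases with a rate below 0.05. The lengths of all runs of listed bases that touched a region were summed. For broad regions this sum had a median of 701 bp in replicate 1 and 916 bp in replicate 2. For the other regions it was 291 and 301 bp. A sum of 500 bp or more in both libraries was found for 2131 broad regions (73.4%) and for 9740 of the others (19.7%). Where more than 1 run touched a region, the sum is not the length of 1 unbroken stretch. Listed bases fell into more than 1 run in 40.5% of broad regions in replicate 1 and in 21.4% in replicate 2. In the other regions the shares were 20.01% in replicate 1 and 19.92% in replicate 2, so that replicate 2 was close to this background. For the 1414 other regions with a mean height of 8 or more, the summed runs had medians of 972 and 1101 bp. This class includes the 21 wide regions left out by the height limit. No other region was wider than 700 bp, so listed bases in this class often reached beyond the region itself.

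The members just inside the width limit were close to the regions just outside it. The 376 members of 500 to 519 bp had median heights of 1.09 and 1.13 and lay at promoters in 60.9% of cases. The 429 regions of 480 to 499 bp had median heights of 1.23 and 1.21 and lay at promoters in 62.2%. The height limit left out 21 wide regions, all within 1000 bp of a protein-coding start site. Just outside it were the regions at Rap2a (11.5 and 10.1 in replicates 1 and 2), Csnk1g2 (10.9 and 12.4) and Phf19 (11.1 and 11.96). Just inside were those at Uspl1 and Hmgb1 (10.1 and 9.86), Wipi1 (9.76 and 9.66) and Rps19 (9.05 and 9.59). The tallest region left out lay at Gsk3b, with 19.7 and 20.2.

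Broad regions lay mostly at promoters. Promoters were taken as all bases up to 1000 bp from any protein-coding start site annotated in GENCODE M21. Of the broad regions, 2104 (72.5%) reached a promoter, against 33.1% of the others and 35.3% of all shared autosomal regions. The remaining 799 comprised 89 at exons, 247 in introns and 463 between protein-coding genes. Introns held 8.51% of broad regions, against 26.4% of the others. The share at promoters followed width step by step. It was 66.3% at 500 to 599 bp, 75.5% at 600 to 799 bp, 83.7% at 800 to 999 bp and 86.5% from 1000 bp, and 15.7% among regions under 150 bp.

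**Figure D2:**
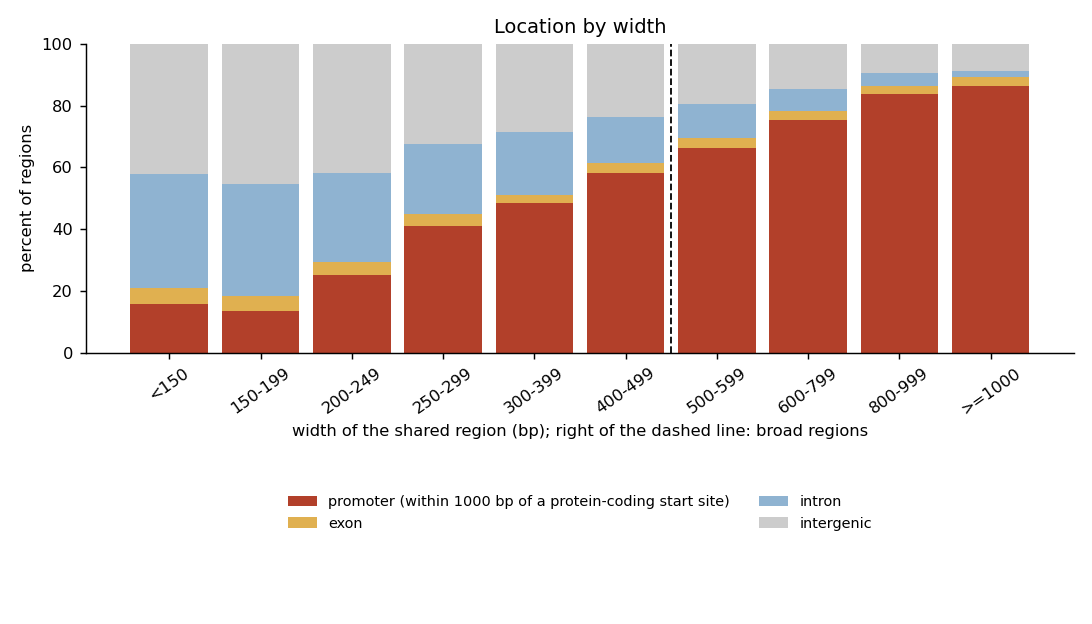
Stacked bars give the percent of shared autosomal regions at promoters, exons, introns and between genes in 10 classes of width (bp). The broad regions are the 4 bars right of the dashed line, where the promoter share grows to 86.5%.

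A wide region has more chances to reach a start site, and that part of the share was not tested. Location differed at equal height too. Between heights of 0.75 and 1, 73.6% of 652 broad regions were at promoters, against 19.8% of 8772 other regions. Between heights of 4 and 8, the shares were 89.4% of 85 broad regions and 88.7% of 3386 others. The contrast in location was therefore one of the low and middle heights.

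Start sites themselves lay inside 1355 broad regions (46.7%), against 20.7% of the others. There were 848 broad regions (29.2%) with at least 2 different start sites, against 13.0% of the others. Per kb of sequence, broad regions held fewer start sites, 1.81 against 2.08 in the others. Start sites on both strands lay inside 76 broad regions (2.62%), against 1.504% of the others. Broad promoter regions reached into the gene. They extended a median of 258 bp upstream and 398.5 bp downstream of the nearest start site, against 158 and 108 bp for the other promoter regions. The centre lay downstream of the start site in 61.5% of broad and 37.2% of other promoter regions. Coding bases were part of 35.5% of broad regions and 10.8% of the others.

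Many members stood beside a taller region. A taller shared region began or ended within 1000 bp of 1163 broad regions (40.1%), against 14.3% of the others. For the 749 broad promoter regions with no start site inside, the count was 574 (76.6%), against 49.3% of 6109 such regions among the others. These 749 had median heights of 0.931 and 1.01, and the tallest neighbour had a median mean height of 3.06. The 1355 broad promoter regions that held a start site had median heights of 1.23 and 1.25, and 440 of them (32.5%) had a taller neighbour. Tle4, which encodes a transcriptional corepressor, also had a taller region at its promoters, at a distance not given here. Its broad region of 990 bp had heights of 0.788 and 0.892, while a region of 280 bp elsewhere in its promoters had a mean height of 23.6.

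Of the 799 broad regions away from protein-coding start sites, 120 (15.02%) had a start site of another gene type within 1000 bp, against 6.09% of 33064 other distal regions. The 5 widest lay close to annotated genes in most cases. The region at Mex3b, which encodes an RNA-binding protein, spanned 1820 bp (chr7:82868381-82870200) and held 1445 coding bases, and its edge was 1048 bp from the start site. Its heights were 1.15 and 1.25. The region beside C130073E24Rik (chr8:50915221-50916800, 1580 bp) began 197 bp from the start of that lincRNA and 2071270 bp from the nearest protein-coding start site, that of Tenm3. Its heights were 0.609 and 0.967, so the libraries differed more there than at Mex3b. The regions at Celf5 (chr10:81466741-81468220, 1480 bp) and Pcdh17 (chr14:84445501-84446840, 1340 bp) overlapped exons 2587 and 1667 bp from the start site. The fifth, of 1307 bp, lay 90 bp from the lincRNA AC141471.6 and 34203 bp from Cxxc5.

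Broad regions were rich in GC and CpG. Their median GC content was 63.1%, with quartiles of 56.0 and 68.1%, against 54.0% in the other regions. The observed over expected CpG ratio had a median of 0.695 in broad regions and 0.365 in the others. A GC content above 50% with a CpG ratio above 0.6, criteria used for CpG islands, was met by 62.3% of broad regions and 26.5% of the others. Among promoter regions alone the medians were 65.4% GC in broad and 62.8% in the others, with CpG ratios of 0.763 in broad and 0.750 in the others. Among distal regions they were 53.9% GC in broad and 51.7% in the others, with CpG ratios of 0.338 in broad and 0.271 in the others. Masked repeats made up at least 50% of the sequence in 2 broad regions and in 597 of the others. The share of shared regions that were broad ran from 4.31% on chromosome 1 to 7.67% on chromosome 19.

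Footprints were sparser in broad regions. There were 5.98 footprints per kb in replicate 1 and 8.48 in replicate 2, against 9.48 and 11.3 in the other regions. The means were 7.23 ± 1.77 in broad regions and 10.4 ± 1.29 in the others (SD, n = 2 libraries each). Within each library the density was lower in broad regions. Footprint bases covered 6.53 and 9.34% of the sequence in broad regions, against 12.4 and 15.01% in the others. Footprint calling depends on the number of cuts, so the comparison was repeated at equal height. The height of a region is that of its tallest peak, so equal height does not mean equal cuts per base. Peaks covered 71.8% of the bases of broad regions in replicate 1 and 87.0% in replicate 2. In the other regions they covered 83.3 and 86.7%. What part of the gap at equal height goes with cuts per base was not tested. Between heights of 0.75 and 1, broad regions had 3.64 and 6.06 footprints per kb, against 6.99 and 9.04 in the others. Between heights of 2 and 4 they had 11.7 and 14.9, against 14.4 and 16.5. From a height of 8, the 10 broad regions had 20.6 and 20.3, against 20.4 and 20.7 in 1414 others. Broad regions had the lower density in both libraries in each of the 7 height classes below 8, with ratios of broad to other between 0.397 and 0.913, and no such gap in the class above.

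**Figure D3:**
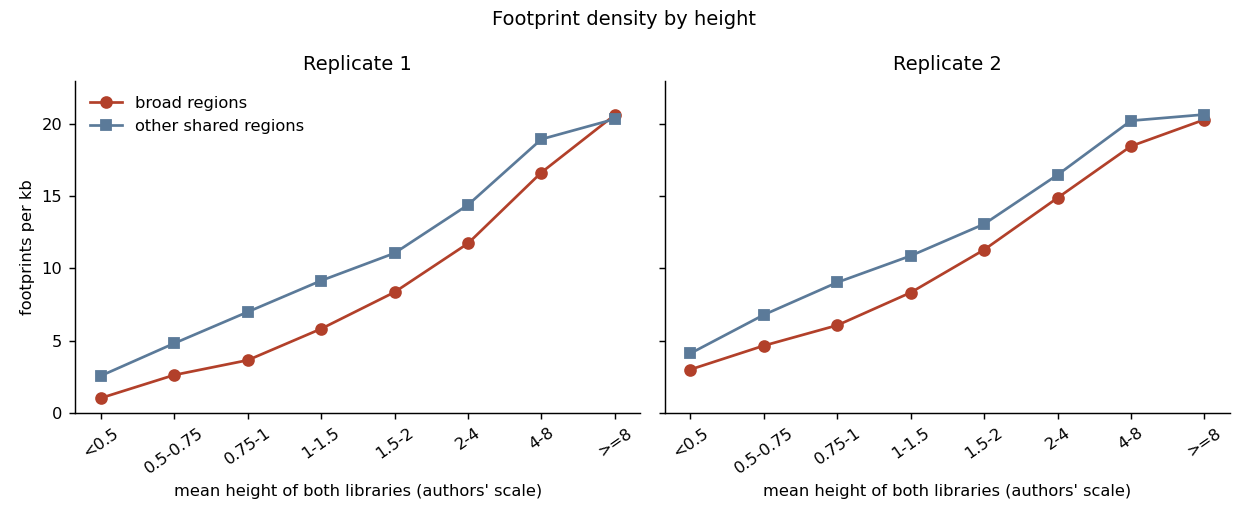
Footprints per kb (vertical axis) in 8 classes of mean height (authors' scale), for broad regions (red circles) and other shared regions (blue squares), 1 panel per library. Density climbs with height in both classes, from 1.01 to 20.6 in broad regions of replicate 1, and the red line lies below the blue one until the last class.

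The lower density was present at promoters and away from them. At promoters, broad regions had 5.86 and 8.36 footprints per kb, against 11.9 and 13.9 in the others. These densities were not at equal height. Median heights of promoter regions were 1.11 and 1.14 in broad regions, against 1.97 and 1.96 in the others. At promoters with heights between 0.75 and 1, broad regions had 3.22 and 5.56, against 5.14 and 7.52 in the others. Between heights of 4 and 8 they had 16.76 and 18.58, against 19.13 and 20.49. The gap at promoters was smaller in these classes of equal height. Away from promoters, broad regions had 6.32 and 8.84 footprints per kb, against 8.06 and 9.75 in the others. Median heights there were 1.07 and 1.05 in broad regions, against 0.931 and 0.851 in the others. Around start sites the density was highest in the 100 bp just upstream, where broad regions had 10.1 and 12.6 footprints per kb and the others 17.3 and 18.6. It then dropped inside the gene. Between 500 and 600 bp downstream it was 3.21 and 4.99 in broad regions and 5.44 and 7.19 in the others. Averaged over promoter regions, broad regions covered 30.7% of the bases of this downstream interval, and the others 7.18%. The densities by distance from start sites were not compared at equal height.

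**Figure D4:**
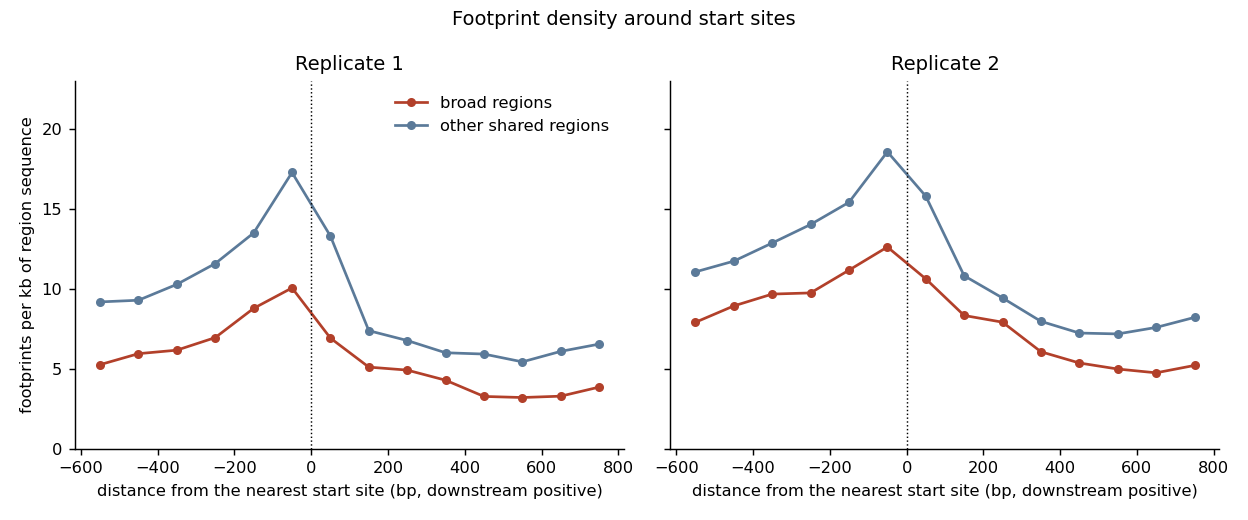
Footprints per kb of region sequence (vertical axis) against distance from the nearest protein-coding start site (bp, downstream positive), in steps of 100 bp, for broad regions (red) and other shared regions (blue), 1 panel per library. Heights were not made equal between the classes. Both classes have their maximum just upstream of the start site, at 10.1 and 12.6 in broad regions, and the red line stays below the blue one over the distances drawn, from 600 bp upstream to 800 bp downstream.

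Footprints also had less of a centre in broad regions. The inner 50% of broad regions held 6.73 and 9.71 footprints per kb and the outer 50% held 5.23 and 7.25. In the other regions the inner part held 12.2 and 14.0, and the outer part 6.73 and 8.59. Footprints in broad regions were shorter and less often shared. Of those in broad regions, 8.05% in replicate 1 and 8.28% in replicate 2 were 20 bp or longer, against 16.8 and 17.7% in the others. A footprint of the other library overlapped 48.8% of the footprints of replicate 1 in broad regions, and 61.3% in the others. For footprints of replicate 2 the shares were 34.1% in broad regions and 50.3% in the others. These shares move with density and height, and that part was not tested.

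The 5 members with the most footprints per kb had 10 to 17 in each library within 500 to 700 bp, and all held a protein-coding start site. At Lcorl (chr5:45857421-45858040), which encodes a relative of a nuclear receptor corepressor, both libraries had 16 footprints in 620 bp at heights of 4.43 and 4.78. At Smarca5, the ATPase of ISWI chromatin remodellers, 600 bp held 13 and 17 at heights of 4.60 and 5.96. Abcc10, a transporter gene, had 10 and 15 in 500 bp, Sdf4 had 13 and 12 in 500 bp, and Mon1b had 17 in each library in 700 bp. Their heights, from 4.31 to 8.31, were all above the 90th percentile of broad regions.

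At the other end, 191 broad regions (6.58%) had no footprint in either library, against 5.35% of the other regions and 5.42% of all shared autosomal regions, close to the background. Rab3a was the widest of them. Its region (chr8:70755701-70758260) spanned 2560 bp at heights of 0.979 and 0.892, and all of its bases were listed below the rate of 0.05 in both libraries. The highest -log10 rate in it was 17.3 in replicate 1 and 8.34 in replicate 2, against 7.64 and 8.48 at Adcy8. The next by width were the regions at Smc4, which encodes a condensin subunit (1140 bp, heights 0.788 and 0.959), and Zfpm2, a cofactor of GATA factors (1140 bp, 0.478 and 0.442). Those at Rhob, a small GTPase gene (1020 bp, 1.43 and 1.43), and Tiam1, a Rac exchange factor gene (984 bp, 0.860 and 0.817), followed. All 5 lay at promoters.

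**Figure D5:**
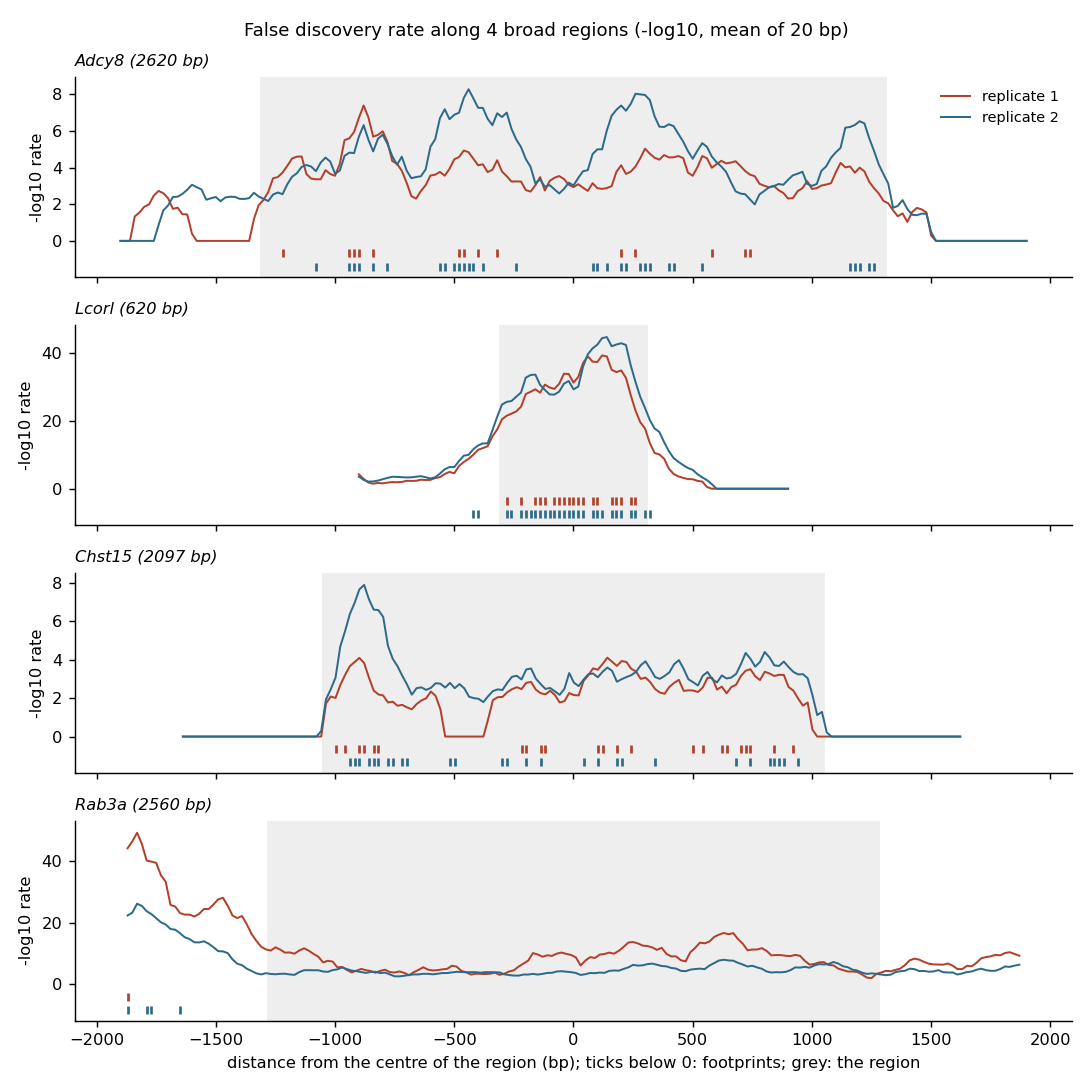
The -log10 of the authors' false discovery rate (mean of 20 bp) against distance from the centre of the region (bp) in replicate 1 (red) and replicate 2 (blue) at Adcy8, Lcorl, Chst15 and Rab3a, with the region in grey, footprints as ticks below 0 and a separate vertical scale per panel. Adcy8 and Chst15 show several low maxima, and Lcorl 1 tall stretch with dense footprints. Rab3a shows several maxima without footprints, up to 16.7 in replicate 1, beside a taller flank.

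The 10 widest members lay at genes of varied function. At Adcy8 (chr15:64920641-64923260, 2620 bp), which encodes a calcium-stimulated adenylyl cyclase, the heights were 0.776 and 0.884, and there were 11 footprints in replicate 1 and 25 in replicate 2. Chst15, a chondroitin sulfate sulfotransferase gene, had a region of 2097 bp (chr7:132315504-132317600) with heights of 1.07 and 1.61 and 18 and 23 footprints. The region at Pcdh10, a protocadherin gene, was 1973 bp long (chr3:45379927-45381899) and coding throughout, 734 bp from the start site. Its heights were 0.872 and 1.084. Ecpas, a proteasome adaptor gene, followed with 1900 bp (chr4:58911081-58912980) and heights of 1.25 and 1.09. The region at Adgrl3, the gene of an adhesion receptor at synapses, measured 1776 bp (chr5:81021281-81023056) with heights of 1.03 and 1.04. Rab3a, described above, was second by width, and the others lay at Mex3b, at Mapk4 and Gm9925 (1905 bp), at Nol4 (1812 bp) and at Fhod3 and Gm9955 (1772 bp). None of the 10 exceeded a height of 1.61 in either library.

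By the mean height of both libraries, the 3 tallest members all held a protein-coding start site. The region that held start sites of Uspl1 and of Hmgb1, the gene of an abundant chromatin protein, had heights of 10.1 and 9.86 in 520 bp. Wipi1, an autophagy gene, had 9.76 and 9.66 in 660 bp, and Kpnb1, the nuclear import receptor importin beta, 9.03 and 10.2 in 540 bp. The 3 lowest by the same mean were at Usp35 (0.191 and 0.183), B4galt5 (0.251 and 0.192) and Sin3b (0.239 and 0.209). Each of these 3 had at most 1 footprint in each library.

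Counted by gene, 12592 autosomal protein-coding genes had a shared region at a promoter, and 2063 of them (16.4%) had a broad one. In 1034 of these genes (50.1%) the broad region was the tallest at the gene's promoters, and in 1029 a narrower region was taller. Genes with a broad region were longer, with a median of 47.7 kb against 24.04 kb for genes with narrower regions alone. The share with a broad region was 13.4% below 10 kb and 9.43% from 10 to 25 kb. It was 14.0% from 25 to 50 kb, 19.96% from 50 to 100 kb, 27.4% from 100 to 250 kb and 41.2% of 631 genes above 250 kb.

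Gene groups differed in how often they had a broad promoter region, to be read beside the 16.4% of all genes with a region. Among regulators of chromatin and DNA methylation, 9 of 13 genes had one. They included the DNA demethylase gene Tet3 (720 bp, heights 2.73 and 2.67), the insulator gene Ctcf (680 bp, 2.76 and 3.04) and Arid1b, a subunit of BAF remodellers (723 bp, 1.27 and 1.13). Dnmt3a, a DNA methyltransferase gene, had a region of 672 bp at 1.505 and 1.73. The widest region at Rad21, a cohesin gene without a broad one, was 360 bp. Among transcription factors of cortical layers, 7 of 13 genes had a broad region. The widest were at Foxp1 (1060 bp, 0.920 and 0.859), Tle4 (990 bp) and Cux1 (700 bp, 0.561 and 0.617). Pou3f2 did not pass, at 440 bp with heights of 3.94 and 4.22. Median gene length was 77.8 kb in the chromatin list and 181 kb in the layer list, against 26.3 kb over all genes.

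Synaptic genes had a broad region in 5 of 13 cases. Nlgn1, a postsynaptic adhesion gene, had 1 of 792 bp at 0.908 and 0.667. At Shank3, a postsynaptic scaffold gene, a region of 700 bp had heights of 2.48 and 2.07, and Shank2 stayed at 470 bp. Nlgn2 had one of the tallest members, 580 bp at 8.56 and 9.82. Of the immediate early genes, which respond to neuronal activity, 3 of 15 had a broad region. They were Nr4a2 (900 bp, 1.52 and 0.942), Egr4 (520 bp, 0.848 and 0.901) and Fosl2 (501 bp, 0.717 and 1.076). The widest region at Fos was 480 bp, with heights of 2.59 and 2.94.

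As a check of the labelled tissue, a shared region lay at a promoter of 5 of 6 defining markers of excitatory neurons, 3 of 6 of interneurons and 3 of 5 of astrocytes. It did so at 1 of 4 autosomal markers of oligodendrocytes, 1 of 4 of microglia and 2 of 4 of vessels. Over all autosomal protein-coding genes, 12592 of 20780 had such a region. Of these marker sets, only that of excitatory neurons lay above this background share, and all sets are small. A broad one was present at 1 astrocyte and 1 vessel marker, Sox9 and Flt1.

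The wider list of excitatory neuron genes had none among 12 with a region, and Tbr1 had the widest region there at 460 bp. The interneuron list had none among 8 (widest Dlx5, 342 bp) and the microglia list none among 5 (widest Sall1, 360 bp). Astrocyte genes had 2 of 8, the glutamate transporter gene Slc1a2 (826 bp, 1.65 and 1.29) and Sox9 (767 bp, 1.54 and 0.993), while Apoe had 400 bp. Oligodendrocyte lineage genes had 1 of 5 (Cnp, 663 bp, 1.15 and 1.07), and Mal had 382 bp. Vascular genes had 1 of 5 (Flt1, 522 bp, 0.382 and 0.542), and Slco1c1 had 460 bp. Median gene length was 14.1 kb in the excitatory neuron list, 10.3 kb for interneurons, 7.66 kb for astrocytes, 16.8 kb for oligodendrocytes, 22.03 kb for microglia and 45.6 kb for vessels. Housekeeping genes had 2 of 12, and Ywhaz, without a broad one, had 420 bp. Motile cilia genes had 1 of 10 (Foxj1, 500 bp, 1.04 and 1.38), and Rfx3 had 460 bp. Patterning genes of other brain parts had none of 2 (Gata3, 315 bp), liver, muscle and blood genes none of 4 (Des, 260 bp), and none of the 14 Hox genes in the list had a shared region at a promoter.

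Families of genes chosen after the values were seen gave a wider view. All 3 teneurin genes with a region, which encode large adhesion proteins of neurons, had a broad one. Those at Tenm4 (797 bp, 0.848 and 0.984), Tenm3 (600 bp, 0.573 and 0.834) and Tenm2 (540 bp, 1.31 and 1.61) were of ordinary height. Cadherins had 9 of 15, with Cdh2 (880 bp, 1.40 and 0.984), Cdh22 (785 bp, 0.955 and 1.07) and Cdh24 (740 bp, 2.15 and 2.11) the widest. Subunits of GABA-A receptors had 6 of 10, and Gabrb1 and Gabra4 shared 1 region of 980 bp at 0.812 and 0.767. Gabra2 had one of 800 bp at 1.56 and 1.68. Calcium channel subunits had 8 of 20, led by Cacna2d3 (1200 bp, 1.28 and 0.767). Semaphorins had 7 of 18, led by Sema6a (1452 bp, 0.645 and 0.851). Glutamate receptors had 6 of 19, led by Grm3 (1200 bp, 0.573 and 0.759) and Grm7 (1100 bp, 1.25 and 1.04), and all 3 promoter regions at Grin2a were broad.

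Potassium channels had 16 of 58 and solute carriers 46 of 218. Replication-dependent histones had 13 of 56, although some share a region, such as Hist2h2ab, Hist2h2be and Hist2h2ac with 1 of 900 bp at 2.32 and 2.64. Zinc finger genes had 46 of 376. Families of general cell functions had few. Cytosolic ribosomal proteins had 7 of 76, with Rpl7 (880 bp, 1.13 and 1.13) the widest and Rps19 (640 bp, 9.05 and 9.59) the tallest of those named. Mitochondrial ribosomal proteins had 6 of 78, complex I subunits 2 of 43 and proteasome subunits 2 of 37. Median gene length was 3.33 kb in the cytosolic ribosomal family and 740 kb in the teneurins.

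Several genes carried more than 1 member. The 12 in the span of Gm20388 fell over neighbouring genes that this annotation covers. Tecr, an enzyme gene of very long chain fatty acid synthesis, had 6 in its span. They were 560 to 1000 bp wide, with heights from 0.310 to 0.633 in replicate 1 and from 0.275 to 0.601 in replicate 2. Nfic, which encodes a nuclear factor I transcription factor, had 5, 4 of them with heights from 0.442 to 0.705 in replicate 1 and 1 of 1.22. At B4galt5, a glycosphingolipid enzyme gene, 4 members had heights from 0.251 to 0.346 in replicate 1 and from 0.192 to 0.309 in replicate 2. These 4 held 2 footprints in replicate 1 and 6 in replicate 2, while the highest -log10 rates in replicate 1 reached 8.30. Pcdh17, a protocadherin gene, had 4 members of 900 to 1340 bp that followed each other closely, from chr14:84444261-84445460 to chr14:84447741-84448660. Their heights were 0.752 to 1.30 in replicate 1 and 0.951 to 1.42 in replicate 2.

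Motif content was compared in windows of equal length and position, 250 bp before to 50 bp after the start site nearest the centre of promoter regions that held one. There were 1355 windows for broad regions and 10225 for the others. Median GC content was 67.7% in the windows of broad regions and 60.7% in the others. Median heights of these regions were 1.23 and 1.25 for broad regions and 2.87 and 2.80 for the others. The GC box GGGCGG lay in 70.8% of the windows of broad regions and in 63.7% of the others. Counted per kb over whole promoter regions the order was reversed, 3.76 in broad regions and 4.27 in the others. Away from promoters it was 1.20 in broad regions and 0.618 in the others. CCAAT, ETS, NRF1 and YY1 motifs, common at CpG promoters, were less frequent in the start-site windows of broad regions. The CCAAT box CCAAT lay in 20.1% of the windows of broad regions and in 39.7% of the others. The ETS motif CCGGAAG lay in 9.96% of broad and 18.6% of other windows. The NRF1 motif GCGCATGC lay in 2.07% of broad and 6.09% of other windows, and the YY1 motif AAGATGGCG in 0.959% of broad and 3.09% of other windows. The CRE motif TGACGTCA lay in 2.07% of broad and 4.14% of other windows, and TAATTA, a homeodomain core, in 1.03% of broad and 2.28% of other windows. Smaller gaps separated the classes for the E-box CAGCTG (16.2% of broad and 15.4% of other windows), the E-box CAGATG (10.6% of broad and 11.7% of other windows) and the SOX motif ACAAAG (11.5% of broad and 13.1% of other windows). So it was for the AP-1 motif TGANTCA (3.76% of broad and 4.29% of other windows), and the E-box CACGTG (8.93% of broad and 10.8% of other windows). The octamer ATGCAAAT lay in 1.11% of broad and 1.496% of other windows, and the nuclear factor I motif TTGGCA in 9.45% of broad and 11.4% of other windows. A match is a run of letters and was not tested for binding. Matches on both strands counted, and the differences in base composition and height were not removed.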

How the data were processed

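DNase-seq libraries of 1 group were used, with values given per library or as mean ± SD over 2 libraries. Peak heights are signal values, and the authors deposited them scaled per library in a unit that was not stated. False discovery rates, which are q-values, were deposited by the authors for runs of bases below 0.05, and the deposited footprints carry the constant p-value or q-value 0.01. Files were per library and not pooled, in assembly mm10 per the file headers and labels. The aligner and callers are not given in the sources used here. Read depth is unknown, so no counting interval was given, and the number of libraries limits the precision.

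Peaks of the longer list of each library were joined where they overlapped by at least 1 bp. A footprint was counted where its middle base lay. Genes came from GENCODE M21, sequence from GRCm38. Python 3.11.15, pandas 2.3.3, numpy 2.4.6, pysam 0.24.0 and samtools 1.23.1 were used. The interval code was tested on simulated data. Alternatives changed the peak list, the limits of width and height, the joining, the promoter window and the counting of footprints.

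The members, 15 gene lists, 14 motifs, alternatives and naming rule for genes were chosen with earlier results of these data known, and the 14 gene families after the values were seen. The rule took the widest members, the widest distal ones, those with most and with no footprints, the tallest and lowest, those at the limits, per list up to 3 widest and 1 narrower gene, and genes with most members. Examples with a taller region at the same gene and within families were chosen after their values were seen. Pairs of values give replicate 1 before replicate 2 unless stated. Some named genes and 1 sequence are not reported here.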

Additional observations from a re-analysis of the deposited data

How the results depend on the processing

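Promoter share, GC content and footprint density kept their direction against the other regions in 5 alternatives. In these, both classes were recomputed (single wide peak in each library, 750 bp, 500 bp covered by both, and each library alone). The other regions were not recomputed with the shorter, stricter peak list, so the direction there is unknown. With a single peak of 500 bp or more in each library, broad regions had 6.89 and 9.22 footprints per kb in replicates 1 and 2, against 9.07 and 10.97 in the others, and 80.3% against 34.9% at promoters. The number of broad regions, 2903, depended on the settings. It was 1146 with the shorter, stricter peak list, 6106 at 400 bp or wider and 589 at 750 bp or wider. It was 426 with a single peak of 500 bp or more in each library, 710 with 500 bp or more covered by peaks of both libraries, and 957 to 2210 with each library left out in turn.

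The share at promoters, 72.5% (Wilson 95% interval 70.8 to 74.1%, counting error over regions only, which are not replicates), was 78.6% with the stricter list, 64.7% at 400 bp, 84.4% at 750 bp, 80.3% with a single wide peak in each library, 78.3% with 500 bp covered by both, and 70.6 to 75.1% with each library left out. It was 66.2% with a window of 500 bp, 75.6% with 2000 bp and 76.6% with start sites of all annotated genes. Footprints per kb, 7.23, were 10.2 with the stricter list and stayed within 1 SD of this mean under the other alternatives. With peaks and footprints of 1 library alone, they were 7.16 in replicate 1 and 8.23 in replicate 2. Over the joined regions, the same libraries had 5.98 and 8.48. The median GC content, 63.1%, was 65% with the stricter list, 61.3% at 400 bp, 64.7% at 750 bp, 64.5% with a single wide peak in each library, and 62.6 to 63.9% with each library left out. The cause was not tested. No limit on height, height below 10 in both libraries and a larger overlap for joining left the share at promoters inside that interval, footprint density and GC content within 1 SD, and the number of broad regions at 2924, 2900 and 2610.

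No paired analysis was possible because there was 1 group. The libraries differ in how many wide peaks they have, and their depth is unknown.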
